A study of Mus musculus with 47 samples.

Results

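The genes described here make, sense, move and remove cholesterol. They number 29 of the 37315 genes with a row in each count table and were chosen by symbol, through the mouse GENCODE annotation of the Ensembl identifiers. There are 19 genes of the synthesis pathway, 5 of the sterol sensing system (Srebf1, Srebf2, Scap, Insig1 and Insig2) and 5 of transport and turnover (Stard4, Mylip, Abca1, Apoe and Cyp46a1). All 29 were found, and all 29 passed the filter on low counts in every fit.

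All mice were adult females of the inbred strain C57BL/6J, with no transgene or treatment named in the labels. Whole hypothalamus, hippocampus, neocortex and cerebellum were sequenced at proestrus, estrus, metestrus and diestrus, the 4 stages of the estrous cycle. There were 3 libraries per stage and region, except 2 for estrus in the neocortex, which makes 47 libraries. All proestrus mice were 91 days old and all estrus mice 90 days old, so age and stage cannot be told apart between those 2 stages. Metestrus mice were 90 or 91 and diestrus mice 90 or 92 days old. Hippocampus libraries were made with a different protocol from the other 3 regions, so region and protocol cannot be told apart in any difference that involves the hippocampus.

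The total count per library ran from 1826368 to 8264980 in the hypothalamus, 7672217 to 15680876 for hippocampus, 6311867 to 10535466 for neocortex and 2558644 to 7996961 for cerebellum. The marker lists of the 4 regions followed the dissection labels: summed over 5 genes, hypothalamus markers reached 389 to 779 CPM (counts scaled to the library total) in the hypothalamus and at most 1.80 CPM in any other library. Some hypothalamus libraries stood apart in the share of counts taken by Lars2, which reached 13.5% in Hypothalamus Estrus 3 and 10.6% in Hypothalamus Metestrus 3, against 0.415 to 3.79% in the other 3 regions. No call on the 29 genes differed when Estrus 3 and Metestrus 3 were left out. Hypothalamus Metestrus 2 (8.62%), Proestrus 2 (8.18%), Estrus 1 (4.86%), Diestrus 2 (4.30%) and Estrus 2 (3.97%) also lay above the other regions. They stayed in that check. Levels are given in CPM by library total, while fitted differences use TMM scaling, and relative to the ratio of mean CPM the fitted neocortex minus cerebellum difference was higher by a median of 0.17 on the log2 scale over the 29 genes. No difference called without a fold threshold had opposite signs on the 2 scales. The 29 genes together took 0.186 to 0.333% of all counts, and they differed widely in depth. In the hypothalamus, the lowest raw count in a library was 1706 for Apoe and 10 for Mvd. The lowest raw count of any of the 29 in any library was 8, for Ebp in the hypothalamus.

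Brain cholesterol is made within the brain, because lipoproteins of the blood do not cross the blood-brain barrier. Synthesis starts from acetyl-CoA, runs through mevalonate, isoprenoids and squalene, and ends with a series of changes to the sterol ring. When membrane sterol is low, Scap carries the transcription factor precursors encoded by Srebf1 and Srebf2 from the endoplasmic reticulum to the Golgi, where they are cut free to reach the nucleus, and the Insig proteins hold them back when sterol is high. Astrocytes pass cholesterol to neurons on Apoe particles loaded by Abca1, and neurons dispose of the excess through Cyp46a1, whose hydroxylated product can leave the brain.

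Promoter sequence is shown for 4 synthesis genes and Cyp46a1, since the sterol response acts through short motifs close to the start of transcription. The synthesis genes are the first 4, in order of their test statistic for region, that had an entry with a searched motif, and the Cyp46a1 promoter was added after its values were seen. Each line gives the 250 bases before the RefSeq start (GRCm38.p6), 5′ to 3′ on the gene's strand, with motif matches on either strand in capitals. The positions are chr13:119690101-119690350 on the plus strand for Hmgcs1, chr17:12960726-12960975 on the minus strand for Acat2, and chrX:8193513-8193762 on the minus strand for Ebp. For Hsd17b7 it is chr1:169969206-169969455 on the minus strand, and for Cyp46a1 chr12:108334066-108334315 on the plus strand.
Hmgcs1: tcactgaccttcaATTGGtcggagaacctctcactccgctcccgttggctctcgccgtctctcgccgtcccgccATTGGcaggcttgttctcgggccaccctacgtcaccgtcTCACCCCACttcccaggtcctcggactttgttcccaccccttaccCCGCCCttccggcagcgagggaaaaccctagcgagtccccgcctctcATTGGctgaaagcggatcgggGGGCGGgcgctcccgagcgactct
Acat2: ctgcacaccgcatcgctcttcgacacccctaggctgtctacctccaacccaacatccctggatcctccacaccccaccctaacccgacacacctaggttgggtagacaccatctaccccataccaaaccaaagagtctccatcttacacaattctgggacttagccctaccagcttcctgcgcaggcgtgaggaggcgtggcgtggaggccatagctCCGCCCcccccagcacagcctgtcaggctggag
Ebp: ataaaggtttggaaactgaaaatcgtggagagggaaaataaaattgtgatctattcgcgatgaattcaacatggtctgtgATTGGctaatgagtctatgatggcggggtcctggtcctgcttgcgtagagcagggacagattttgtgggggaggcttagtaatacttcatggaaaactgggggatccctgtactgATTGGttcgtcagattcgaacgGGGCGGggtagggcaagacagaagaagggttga
Hsd17b7: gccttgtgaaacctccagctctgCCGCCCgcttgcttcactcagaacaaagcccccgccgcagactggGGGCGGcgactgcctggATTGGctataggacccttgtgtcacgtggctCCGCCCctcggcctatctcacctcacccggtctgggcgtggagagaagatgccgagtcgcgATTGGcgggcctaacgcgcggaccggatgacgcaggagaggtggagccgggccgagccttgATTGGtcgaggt
Cyp46a1: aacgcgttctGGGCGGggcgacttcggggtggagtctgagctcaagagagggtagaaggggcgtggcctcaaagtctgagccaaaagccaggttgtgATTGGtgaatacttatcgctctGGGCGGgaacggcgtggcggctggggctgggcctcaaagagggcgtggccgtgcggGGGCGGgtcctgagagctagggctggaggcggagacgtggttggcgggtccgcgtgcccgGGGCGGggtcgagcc

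The capitals mark 3 motifs: the sterol regulatory element TCACNCCAC, which binds the factors encoded by Srebf1 and Srebf2, the CCAAT box CCAAT, and the GC box GGGCGG. The last 2 are bound by general factors that act beside them. The motifs were searched on both strands, and none of them overlaps another by its letters. RefSeq had an entry for 25 of the 29 genes (not for Fdft1, Fdps, Sqle and Stard4). The sterol regulatory element in this spelling was found in 1 of the 25, Hmgcs1, where TCACCCCAC lay 137 to 129 bases before the start. Over all 27025 genes with an entry, 1.22% held it. The CCAAT box was found in 21 of 25 genes against 37.5% of all genes, and the GC box in 22 of 25 against 35.4%. Hmgcs1 and Hsd17b7 each held 3 CCAAT boxes in their window, and Cyp46a1 held 4 GC boxes. These are matches of letters, not sites of measured binding.

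Levels were compared between genes per length of annotated exon. On that scale Apoe, the main lipoprotein of the brain, stood far above the rest at 522 CPM per kb, averaged over regions. Hmgcs1, which makes the precursor of mevalonate, followed at 43.6 CPM per kb, then Insig1 at 27.5, Srebf2 at 25.8 and Cyp46a1 at 22.3 CPM per kb. The lowest was Lss, the lanosterol synthase, at 3.48 CPM per kb. The exon length holds every annotated transcript, so genes with long rare transcripts come out low.

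**Figure D1:**
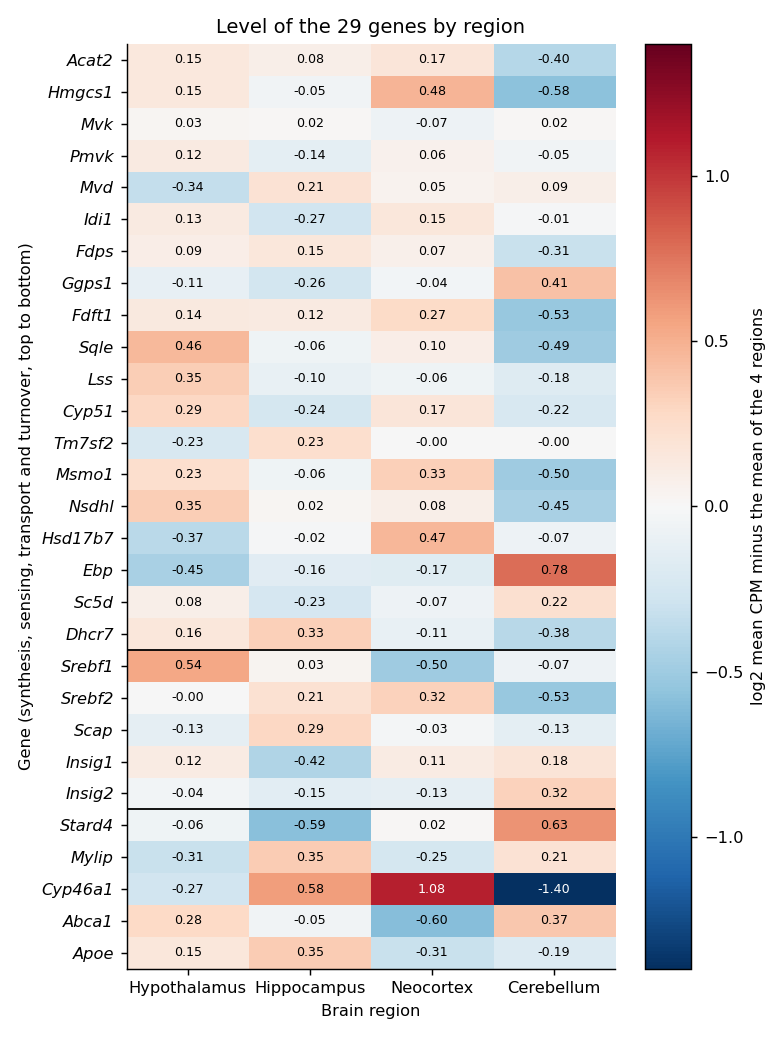
Mean CPM of the 29 genes in each region on the log2 scale, minus the mean of the 4 regions for that gene, written in each cell (red above, blue below); lines separate synthesis, sensing, and transport and turnover. Cyp46a1 spans the widest range, and Mvk is close to 0 throughout.

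Region was the main difference among the libraries. Its share of the variance of log2 CPM had a median of 73.2% over the 29 genes and 70.5% over all 16529 genes tested, and stage had a median share of 1.08% against 1.22%. Of the 29 genes, 28 passed the F-test of region, as did 96.3% of all genes (edgeR quasi-likelihood, Benjamini-Hochberg adjusted p at most 9.5e-06). The exception was Mvk, mevalonate kinase, with mean levels of 12.2 CPM for hypothalamus, 12.1 for hippocampus, 11.4 for neocortex and 12.1 for cerebellum (adjusted p = 0.839). Its largest fitted difference was 0.08 on the log2 scale, with a 95% interval of -0.11 to 0.26 (neocortex minus cerebellum).

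Most of these differences were small. In tests without a fold threshold, the numbers of the 29 genes called were 23 between hypothalamus and hippocampus (75% of all genes tested), 19 between hypothalamus and neocortex (74.9%) and 23 between hypothalamus and cerebellum (76%). They were 21 between hippocampus and neocortex (65.4%), 25 between hippocampus and cerebellum (77.4%) and 24 between neocortex and cerebellum (71.4%). Against a threshold of 1 on the log2 scale (glmTreat), the counts were 0, 1, 1, 0, 2 and 2 in the same order, where 14%, 16.1%, 18.5%, 7.56%, 18.9% and 17.1% of all genes were called. Between 25 and 29 of the 29 genes had a fitted difference under 1 in each pair, against 75.5 to 88.1% of all genes. The 6 calls fell on 3 genes: Cyp46a1, Hmgcs1 and Stard4.

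Cyp46a1 (chr12:108334381-108362234, plus strand), the hydroxylase that starts cholesterol removal in neurons, had the widest regional range of the 29. Its lowest, median and highest CPM were 114, 126 and 146 in the neocortex, 73.0, 95.9 and 102 in the hippocampus, 36.5, 49.3 and 64.3 in the hypothalamus, and 17.98, 22.7 and 28.8 in the cerebellum. No range overlapped another, so the order from neocortex to cerebellum held in every library. The fitted log2 difference was 2.65 ± 0.06 (SE) between neocortex and cerebellum, a 6.28-fold difference (adjusted p = 1.5e-29, glmTreat). It was 2.06 ± 0.06 between hippocampus and cerebellum (adjusted p = 1.1e-21), 1.199 ± 0.07 between hypothalamus and cerebellum (adjusted p = 0.0035), and -1.45 ± 0.06 for hypothalamus minus neocortex (adjusted p = 1.7e-09). It was -0.59 for hippocampus minus neocortex and -0.86 for hypothalamus minus hippocampus, and neither passed the threshold of 1.

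Neuron markers moved with region too. Summed over 6 genes (Snap25, Syt1, Rbfox3, Stmn2, Syn1 and Nefl) they reached 5030 to 5656 CPM in the neocortex, 4026 to 4436 in the hippocampus, 3273 to 3591 in the cerebellum and 1190 to 2114 in the hypothalamus. The hypothalamus thus had the lowest neuron marker sum but not the lowest Cyp46a1. Past the threshold of 1, 5 of the 6 markers were called lower in the hypothalamus than in the neocortex (16.1% of all genes called either way). In the neocortex 2 were higher than in the cerebellum (17.1%), and in the hypothalamus 2 were lower than in the cerebellum (18.5%). Without a threshold, 4 markers were higher and 2 lower in the neocortex than in the cerebellum (71.4% of all genes called). In the hypothalamus, 2 markers were higher and 4 lower than in the cerebellum (76%). Their part in the Cyp46a1 difference was not tested. In whole tissue, fewer cells of a type and less RNA per cell cannot be told apart.

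Hmgcs1 (chr13:119690379-119708260, plus strand), the cytosolic synthase at the entry to the mevalonate pathway, was highest in the neocortex. Its lowest, median and highest CPM were 235, 273 and 286 there, 148, 219 and 269 in the hypothalamus, 152, 189 and 219 in the hippocampus, and 108, 135 and 146 in the cerebellum. The cerebellum lay below every other region in all libraries, and the neocortex lay above all hippocampus libraries, while the hypothalamus overlapped both of these. The neocortex exceeded the cerebellum by 1.23 ± 0.05 (SE) on the log2 scale (2.34-fold, adjusted p = 3.4e-05, glmTreat). About 11.6% of the 50-base stretches of its exons also occur in other annotated genes, mainly its opposite-strand neighbour Gm48342, and no source used here states whether counting used strand.

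Stard4, a soluble carrier that moves sterol between membranes, ran the other way. Its lowest, median and highest CPM were 43.0, 56.5 and 65.1 in the cerebellum, 30.3, 36.4 and 39.2 in the neocortex, 22.1, 34.4 and 43.4 in the hypothalamus, and 17.5, 22.8 and 30.4 in the hippocampus. The cerebellum and hippocampus did not overlap. The log2 difference was -1.14 ± 0.07 (SE) for hippocampus minus cerebellum, 2.21-fold higher in the cerebellum (adjusted p = 0.037, glmTreat). This call lay at the threshold: it was lost with DESeq2 (adjusted p = 0.494), with RLE scaling (adjusted p = 0.064), and when any of 8 single libraries was left out (Hippocampus Proestrus 1, Estrus 1, Metestrus 2, Metestrus 3, Diestrus 1 and Diestrus 2, Cerebellum Metestrus 1 and Diestrus 1), while the difference stayed between -1.20 and -1.11. Without a threshold, Stard4 was called in all 6 region pairs.

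**Figure D2:**
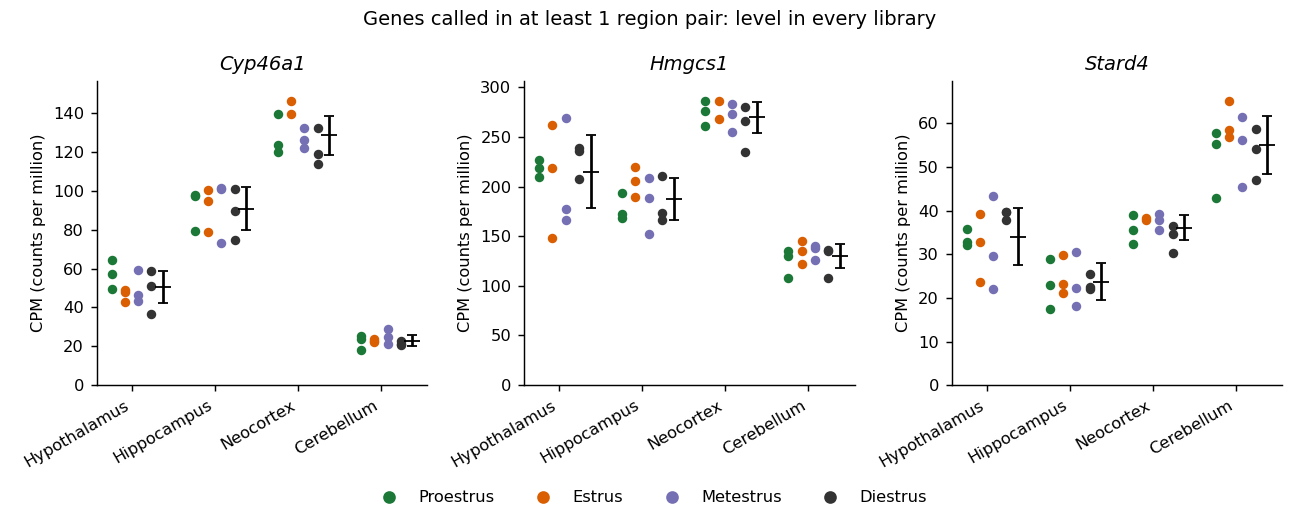
CPM of Cyp46a1, Hmgcs1 and Stard4 in every library by region (vertical axes from 0); points are libraries coloured by stage, and bars give the mean and SD over the 11 or 12 libraries of a region. The 4 regions separate without overlap for Cyp46a1, and stages mix within each region.

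The early synthesis genes, up to the isoprenoids, did not share one regional order. Acat2, which joins acetyl groups at the first step, was lowest in the cerebellum (30.2 CPM, against 41.9 to 44.6 CPM in the other regions). Its log2 difference from neocortex to cerebellum was 0.73 ± 0.05 (SE). Idi1, which isomerizes the isoprenoid unit, was lowest in the hippocampus at 39.0 CPM, and Ggps1, which draws isoprenoids off to protein prenylation, was highest in the cerebellum at 51.4 CPM. The ratio of the highest to the lowest regional mean was 1.198 for Pmvk, 1.34 for Idi1, 1.38 for Fdps, 1.46 for Mvd, 1.48 for Acat2 and 1.58 for Ggps1. Reads of several of these genes may be split with copies: 39.1% of the 50-base stretches of Acat2 occur also in Acat3 or Tcp1, 26.2% of those of Fdps in Gm43738 or other genes, and 25.3% of those of Idi1 in Gm13502 or others.

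From squalene onward, Fdft1, Sqle, Lss, Msmo1, Nsdhl and Dhcr7 were lowest in the cerebellum by mean CPM, Cyp51 and Sc5d in the hippocampus, and Tm7sf2, Hsd17b7 and Ebp in the hypothalamus. Sqle, the squalene epoxidase, averaged 68.1 CPM in the hypothalamus, 53.0 in the neocortex, 47.4 in the hippocampus and 35.2 in the cerebellum. Fdft1, the squalene synthase, averaged 72.6 CPM in the neocortex against 41.8 CPM for cerebellum, and 26.5% of its stretches are shared with the opposite-strand transcripts of Ctsb or with Gm6781. Msmo1 and Nsdhl, which remove ring methyl groups, and Lss were also lowest in the cerebellum, at 35.4, 9.6 and 32.8 CPM. Sqle between hypothalamus and cerebellum (log2 difference 1.02 ± 0.05) and Msmo1 between neocortex and cerebellum (1.004 ± 0.09) had fitted values past 1 that did not pass the glmTreat test.

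Ebp (chrX:8185329-8193512, minus strand), the sterol isomerase, was highest in the cerebellum, with lowest, median and highest CPM of 16.02, 20.4 and 23.2 there and 4.4, 8.6 and 12.9 in the hypothalamus. The 2 ranges did not overlap. Its log2 difference for hypothalamus minus cerebellum was -1.14 ± 0.08 (SE; adjusted p = 0.076, glmTreat), just short of the threshold, and it was called when Hypothalamus Estrus 2 was left out and with a replicate block. Hsd17b7, a sterol ketoreductase, was highest in the neocortex at 26.5 CPM and lowest in the hypothalamus at 14.8. Dhcr7, the reductase of the last step, was highest in the hippocampus at 32.7 CPM and lowest in the cerebellum at 19.9. Cyp51, the lanosterol demethylase, was highest in the hypothalamus at 70.6 CPM, Sc5d, the sterol desaturase, in the cerebellum at 58.3 CPM, and Tm7sf2, a sterol reductase, in the hippocampus at 19.9 CPM.

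Over the 19 synthesis genes, the cerebellum was the lowest region by mean CPM for 9, the hippocampus for 5, the hypothalamus for 4 and the neocortex for 1. The median fitted log2 difference of the synthesis genes was 0.44 for neocortex minus cerebellum, where the median of all genes was -0.01. It was 0.47 for hypothalamus minus cerebellum (all genes -0.0012), 0.20 for hippocampus minus cerebellum (all genes 0.02) and -0.24 for hippocampus minus neocortex (all genes 0.0014). Without a fold threshold, 13 of 19 were higher in neocortex than in cerebellum (35.7% of all genes) and 3 lower (35.7%). The summed level of 12 oligodendrocyte markers, cells that make myelin and much of its cholesterol, was 4814 to 6204 CPM in the cerebellum and 3823 to 4873 CPM in the neocortex, the opposite order. It was 4297 to 5242 CPM in the hippocampus and spread most in the hypothalamus, from 2660 to 6870 CPM. Gene by gene the order was mixed: without a threshold, 3 of the 12 were called higher in the neocortex than in the cerebellum and 7 lower (35.7% of all genes each way). None of these 12 markers was called past the threshold of 1 in any pair, where 7.56 to 18.9% of all genes were. Their part in the synthesis differences was not tested.

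The 2 genes for the sterol response factors had different orders. Srebf2, whose product drives mainly cholesterol genes, had lowest, median and highest CPM of 204, 225 and 253 in the neocortex, 185, 205 and 236 in the hippocampus, 142, 178 and 216 in the hypothalamus, and 110, 124 and 139 in the cerebellum. Srebf1, whose product acts mainly on fatty acid genes, was highest in the hypothalamus, at 58.7, 84.8 and 114 CPM, and lowest in the neocortex, at 32.8, 42.6 and 50.7 CPM. For neocortex minus cerebellum, Srebf2 had a log2 difference of 1.02 ± 0.05 (SE) and Srebf1 one of -0.25 ± 0.08. Srebf2 did not pass the glmTreat threshold in that pair (adjusted p = 0.712).

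Insig1, the retention protein that is itself a sterol response gene, was lowest in the hippocampus at 62.8 ± 5.2 CPM (SD, n = 12). It averaged 91.0, 90.7 and 95.2 CPM in hypothalamus, neocortex and cerebellum, and none of the 3 pairs among those regions was called even without a fold threshold. The fitted log2 difference of hypothalamus minus cerebellum was 0.0039, with a 95% interval of -0.13 to 0.14. Insig2, the second retention protein, was highest in the cerebellum at 57.8 CPM and between 41.7 and 44.9 CPM elsewhere. Scap, the escort, was highest in the hippocampus at 98.5 CPM and between 73.5 and 78.8 CPM elsewhere.

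Among the other genes of transport, Apoe was highest in the hippocampus, with lowest, median and highest CPM of 994, 1394 and 1825, and lowest in the neocortex, with 714, 879 and 995. The ranges overlap only narrowly, since the lowest hippocampus value is just under the highest of the neocortex. Its log2 difference was 0.57 ± 0.08 (SE) for hippocampus minus neocortex. Abca1, which loads lipid onto Apoe, averaged 62.3 CPM in the cerebellum, 58.5 in the hypothalamus, 46.4 in the hippocampus and 31.8 in the neocortex. Mylip, a ligase that marks lipoprotein receptors for degradation, averaged 21.1 CPM in the hippocampus and 13.4 in the hypothalamus. The 9 astrocyte markers, summed, reached 5112 to 6490 CPM in the hippocampus and 5525 to 6387 CPM in the neocortex, so the ranges of their sum overlapped. Between these 2 regions, 1 of the 9 was called higher in the hippocampus past the threshold of 1 (1.58 on the log2 scale), and without a threshold 3 were higher and 2 lower. Of all genes, 7.56% were called in this pair past the threshold and 65.4% without it. Choroid plexus markers, from tissue that lies against the hippocampus, were called higher in the hippocampus than in the neocortex in 6 of 6 genes (summed CPM 152 to 3256 against 13.6 to 58.9), and their part in the Apoe difference was not tested.

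The rest of the sterol pathway was described by lists that hold none of the 29. Among 13 fatty acid genes of the sterol response and 9 genes of the isoprenoid branch, 0 passed glmTreat in any of the 6 pairs. The smallest adjusted p were 0.514 for Lpin1 (hypothalamus minus neocortex, 1.05 on the log2 scale) and 0.276 for Fnta (hippocampus minus cerebellum, -1.05). Without a threshold, between 8 and 13 of the 13 fatty acid genes were called in each pair, where 65.4 to 77.4% of all genes were. Of 12 further genes of sterol response control, glmTreat called 1 to 2 in each pair with the cerebellum, where 17.1 to 18.9% of all genes were called, and 0 in the other pairs (7.56 to 16.1% of all genes). Nr1h3, a liver X receptor that senses oxysterols, was lower in the neocortex than in the cerebellum, at 1.78 against 7.98 CPM (log2 difference -1.98 ± 0.12, SE).

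Of 23 further sterol transport genes, glmTreat called 1 to 4 in each pair, a share near the 7.56 to 18.9% of all genes. Stard5, a relative of Stard4, averaged 6.58 CPM in the neocortex and 109 CPM in the cerebellum, with a log2 difference of -3.89 ± 0.07 (SE; adjusted p = 8.0e-38, glmTreat). Gramd1b, a carrier that returns sterol from the plasma membrane, and Lcat, which esterifies cholesterol on lipoproteins, were lower in hypothalamus than in cerebellum, with log2 differences of -1.61 and -2.34. Among 4 tested genes of the list of other cholesterol hydroxylases and related enzymes, Cyp27a1 was lower in the hippocampus than in the cerebellum (1.58 against 10.1 CPM) and Cyp7b1 higher (15.4 against 4.50 CPM).

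The study asked whether brain transcripts change over the estrous cycle, and for the 29 genes the stage test made no call in any region. In the F-test of stage (edgeR quasi-likelihood, 3 degrees of freedom), 0 of 29 genes were called in each of the 4 regions, where 0% of all genes tested were called in each region. At an unadjusted p under 0.05 the numbers were 0, 0, 1 and 0 of 29 in hypothalamus, hippocampus, neocortex and cerebellum. Over all genes they were 234 of 15230, 251 of 17079, 894 of 15926 and 256 of 14877. With DESeq2, 0 of 29 were called in each region and 0 had an unadjusted p under 0.05. The stage by region interaction (9 degrees of freedom) called 0 of 29 and 0% of all genes, and 0 of the 29 had an unadjusted p under 0.05, also with DESeq2. Over all genes, 257 of 16529 had one in edgeR. The smallest of the 29 in edgeR was 0.282, for Srebf1.

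For each gene, the 6 pairwise stage contrasts gave 174 differences per region with 95% intervals. None was called, as for 0% of all gene contrasts in each of the 4 regions. An unadjusted p under 0.05 was found for 3, 2, 9 and 3 of the 174 in hypothalamus, hippocampus, neocortex and cerebellum (1, 2, 4 and 1 with DESeq2). In edgeR these were 1.72, 1.15, 5.17 and 1.72% of the 174, against 2.44, 1.99, 5.71 and 2.32% of all gene contrasts. All 174 intervals lay within 1 log2 unit of 0, which is 2-fold, in each region, where 83.5% of the intervals of all genes did so for hypothalamus, 85.5% for hippocampus, 89.4% for neocortex and 90.3% for cerebellum. Lowly counted genes have wider intervals. All 29 passed the filter in every region, as did all genes behind these shares, which were not matched to the 29 by level. The interval that reached farthest was that of Mvd in the neocortex (diestrus minus estrus), which allowed a difference of up to 1.90-fold, and the farthest in the other regions allowed 1.75-fold in the hypothalamus (Mvd), 1.75-fold in the hippocampus (Apoe) and 1.68-fold in the cerebellum (Mvd). These intervals are for single contrasts and are not widened for their number.

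**Figure D3:**
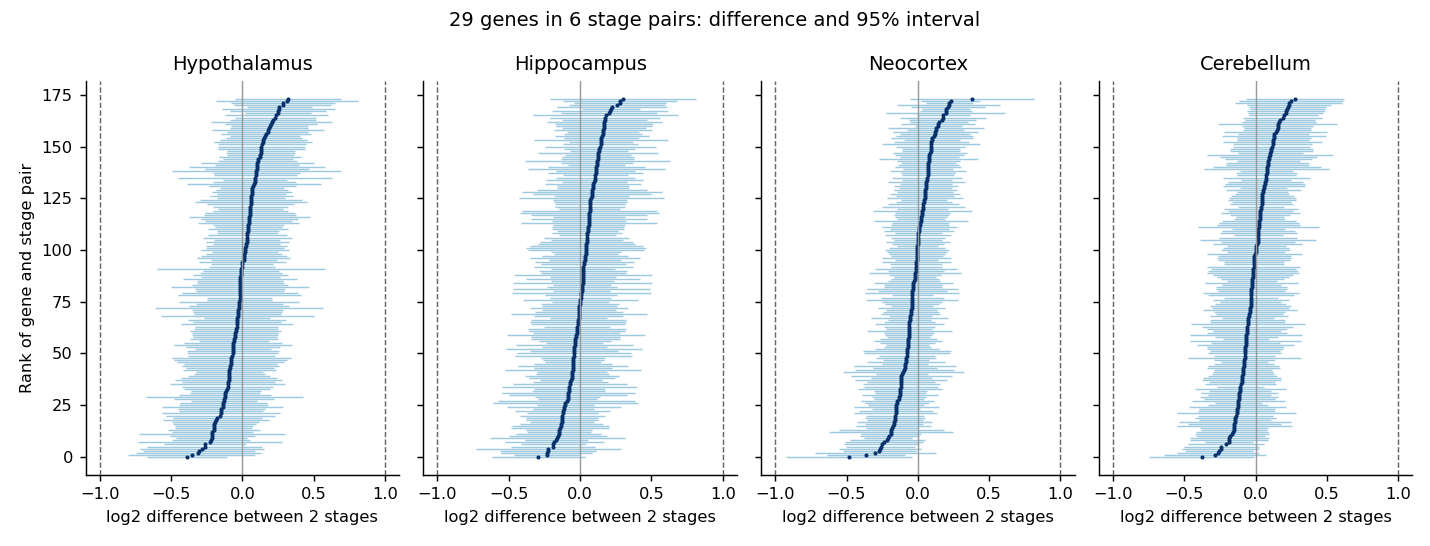
Fitted log2 difference between 2 stages for each of the 29 genes in the 6 stage pairs (174 points per region, sorted), with 95% intervals as lines and dashed lines at 1 and -1. All intervals lie between the dashed lines in each of the 4 regions.

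The genes with the smallest stage p show how wide the libraries spread. In the hypothalamus, Srebf1 (adjusted p = 1.0, edgeR) had 101, 66.8 and 109 CPM at proestrus, 102, 108 and 64.1 at estrus, 77.1, 77.7 and 58.7 at metestrus, and 114, 84.2 and 85.5 at diestrus. Metestrus held the lowest mean, and it overlapped proestrus and estrus, where single libraries were as low. It lay below all diestrus libraries on CPM by library total. On that scale the sum of the synthesis genes was also lower in Metestrus 2 and 3 (753 and 710 CPM) than at diestrus (841 to 993 CPM). Metestrus 1 had 1045 CPM. In the fitted diestrus minus metestrus contrast, 0 of the 5 sensing genes had an unadjusted p under 0.05 (edgeR). The part of library scaling in the gap was not tested. The metestrus minus estrus difference of Srebf1 was -0.39 ± 0.13 (SE) on the log2 scale, the largest of the hypothalamus. Its 2 lowest libraries at those stages, Metestrus 3 and Estrus 3, are the 2 richest in Lars2. Proestrus 2, the lowest at proestrus, had 8.18% Lars2. Metestrus 1 and Metestrus 2, at 77.1 and 77.7 CPM of Srebf1, had 1.89 and 8.62%. Abca1 lay between 65.6 and 73.7 CPM at diestrus and between 34.5 and 70.6 CPM at estrus, with overlap. Msmo1, the next gene by p, ran from 23.5 to 82.5 CPM over the 12 libraries. The lowest values of Abca1 and Msmo1 were both in Estrus 3, the library with the lowest total count and 13.5% Lars2. Its synthesis genes summed to 540 CPM, against 710 to 1045 CPM in the other hypothalamus libraries.

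In the hippocampus, Sqle had 44.3, 43.4 and 49.4 CPM at proestrus, 53.8, 48.9 and 52.5 at estrus, 53.7, 43.8 and 51.2 at metestrus, and 44.5, 41.6 and 42.3 at diestrus. Estrus and diestrus did not overlap, and the difference between them was -0.23 ± 0.10 (SE) on the log2 scale. Sc5d lay between 45.0 and 46.0 CPM at diestrus, above the 35.7 to 43.8 CPM of the other stages. Nsdhl lay between 14.3 and 16.1 CPM at estrus and between 10.7 and 14.6 CPM at the other stages. The adjusted p was 1.0 for each.

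In the neocortex, Ggps1 was the 1 gene of the 29 with an unadjusted p under 0.05 in any region (adjusted p = 0.878, edgeR). It had 38.1, 33.7 and 35.3 CPM at proestrus, 37.4 and 36.0 at estrus, 35.9, 37.9 and 35.2 at metestrus, and 41.2, 40.04 and 43.1 at diestrus. The diestrus libraries lay above all others, by 0.20 to 0.22 on the log2 scale in the 3 contrasts. Nsdhl (adjusted p = 0.886, edgeR) lay between 11.6 and 12.7 CPM at diestrus and at 14.9 and 16.9 CPM at estrus. Cyp46a1 (adjusted p = 0.906, edgeR) had 139 and 146 CPM at estrus, 124, 139 and 120 at proestrus, 132, 122 and 126 at metestrus, and 119, 132 and 114 at diestrus. Estrus held the highest values there, and proestrus overlapped it at 139 CPM.

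In the cerebellum, Srebf2 had 117, 139 and 139 CPM at proestrus, 123, 123 and 125 at estrus, 137, 120 and 126 at metestrus, and 117, 127 and 110 at diestrus. The adjusted p was 1.0 for all 29 genes. The stages overlapped. Mvd, the decarboxylase of the mevalonate pathway, ran from 7.5 to 13.96 CPM and Fdft1 from 31.3 to 51.3 CPM, with no stage apart from the rest. Mvd was among the genes with the largest fitted stage differences in more than one region, at -0.48 ± 0.21 (SE) for diestrus minus estrus in the neocortex and -0.38 ± 0.18 for diestrus minus metestrus in the cerebellum, and its mean of 9.0 to 13.1 CPM in the 4 regions is among the lowest of the 29.

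**Figure D4:**
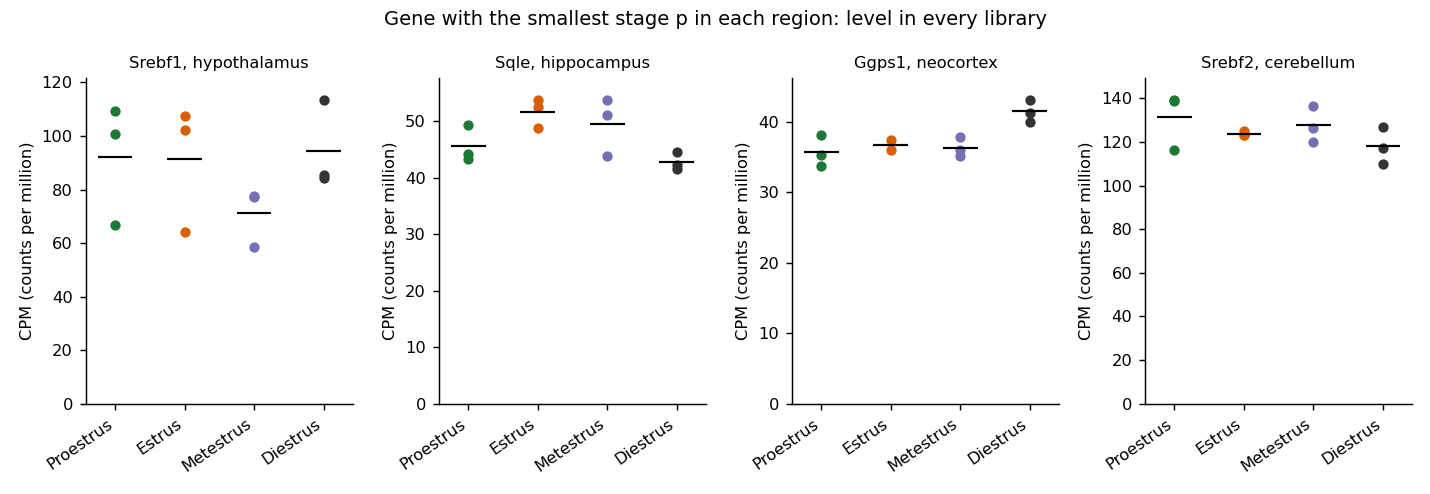
CPM in every library, by stage, of the gene with the smallest stage p in each region (Srebf1, Sqle, Ggps1 and Srebf2; axes from 0); horizontal bars are stage means. On CPM by library total, metestrus lies below diestrus for Srebf1 while the other stages overlap it. The 3 diestrus libraries of Ggps1 lie above the others by a small margin.

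As a group, the 19 synthesis genes had small fitted differences between stages. In the neocortex, 17 of 19 had a value below 0 for diestrus minus estrus, with a median of -0.09 on the log2 scale, where 50.3% of all genes lay below 0 with a median of -0.0013. Of the 19, 4 had an unadjusted p under 0.05 (Mvd, Nsdhl and Dhcr7 below 0 and Ggps1 above), 0 were called, and estrus had 2 libraries there. Over the 6 neocortex contrasts, 9 of 174 differences (5.17%) of the synthesis, sensing, transport and turnover genes had an unadjusted p under 0.05 (edgeR). Pooled in the same way, the share of all gene contrasts was 5.71%. The share of all genes for diestrus minus estrus alone is not given here, so the 4 of 19 has no matching background. The diestrus minus estrus contrast had 11, 11 and 15 of 19 values below 0 in hypothalamus, hippocampus and cerebellum. A score, the mean over the 19 genes of log2 CPM minus the regional mean, stayed between -0.14 and 0.15 in all 47 libraries. In the hypothalamus, the 3 libraries of estrus alone ran from -0.11 to 0.15 (Estrus 3 and Estrus 2), as wide as the range of the whole region. In the neocortex it was 0.07 in both estrus libraries, and from -0.11 to 0.06 at diestrus.

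Libraries of the same stage and number shared the sign of this score in 10 of 11 cases between neocortex and cerebellum and in 9 of 11 between hippocampus and neocortex. They did so in 8 of 12 between hypothalamus and cerebellum, 8 of 12 between hippocampus and cerebellum, 6 of 12 between hypothalamus and hippocampus and 6 of 11 between hypothalamus and neocortex. The labels do not say whether the same number marks one animal. These counts are a description, with no test. The score is taken from the regional mean, so a shift shared by the libraries of a stage would also give the same sign. Libraries of the same stage but different number were not counted.

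**Figure D5:**
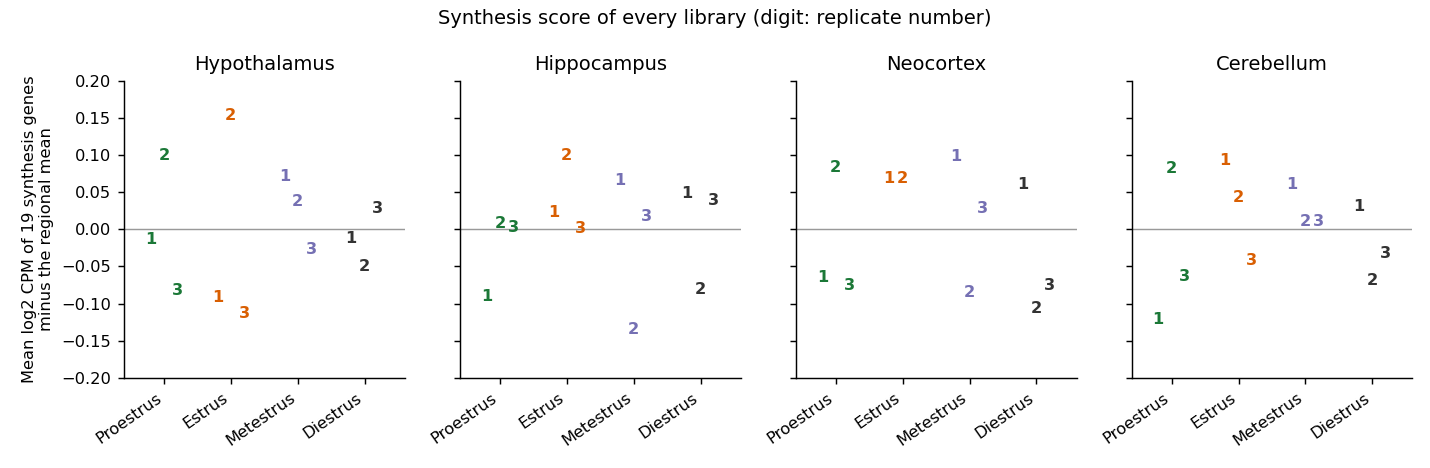
Mean log2 CPM of the 19 synthesis genes minus the regional mean in every library, by stage; each digit is a library's replicate number. Values stay between -0.14 and 0.15, and the 3 estrus libraries of the hypothalamus run from -0.11 to 0.15.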

How the data were processed

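Whole-tissue RNA of 4 brain regions was sequenced in 47 libraries. The authors deposited 1 table of unnormalized counts per region, each with 37315 Ensembl genes. Per the submitters' processing notes, Cufflinks 2.1.1, DESeq 1.12.1, SAMtools, TopHat2 2.0.8 and Trimmomatic 0.32 were used, and the builds named are GRCm38 and mm10. For the counting program, its strand setting and the gene models, no version is given in the sources used here. GENCODE M21 gave symbols to 35449 genes. Of 46 replicate pairs of a stage and region, 0 were identical. Per the labels' protocols RNA was extracted from the regions of each animal, but no label says whether same-numbered libraries of different regions share an animal. Region comparisons treat libraries as independent, and any such sharing is left out of their p-values.

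Quasi-likelihood models of the counts came from edgeR 4.0.16 in R 4.3.3, after TMM scaling and filterByExpr (minimum count 10, total 15). Stage was an F-test within each region with 6 pairwise contrasts. Region pairs were tested by glmTreat for a log2 difference beyond 1 in size, with stage in the model. Benjamini-Hochberg adjustment ran over all genes of a fit (threshold 0.05). Variance shares and the synthesis score are on log2 CPM (prior count 2). Promoters came from RefSeq. The procedure was tested on simulated data.

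Other settings tried were RLE factors, DESeq2 1.42.0, no filter, a mean CPM of at least 1, the replicate number as a block, age as a factor, other fold thresholds, a prior count of 0.5 and leaving out each library in turn. Region and interaction fits without 2 hypothalamus libraries, and region fits without the hippocampus, were chosen after seeing the data. The genes, lists and tests were chosen with earlier results of these data known. The rule for per-library values takes every gene called by glmTreat in a region pair and the 3 with the smallest stage p in each region; Apoe, Ebp, Srebf1 and Srebf2 levels by region and the Cyp46a1 promoter were added after their values were seen. Other lists are described by counts and up to 3 genes with the smallest adjusted p. Without molecular identifiers, reads are not independent molecules. Some pathway genes are not reported here.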

Additional observations from a re-analysis of the deposited data

How the results depend on the processing

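The stage, pairwise and interaction tests called 0 of the 29 genes under every alternative run. Over all genes, the stage test without the filter called 115, 0, 169 and 81 in hypothalamus, hippocampus, neocortex and cerebellum, DESeq2 called 0, 3, 1 and 0, and in the hypothalamus the replicate block and the mean CPM filter each called 1, against 0 in each region as reported. The 6 pairwise contrasts, also 0 in each region as reported, called 221, 0, 497 and 165 without the filter and 0, 3, 45 and 0 with DESeq2 in the same order, 2 in the hypothalamus with the replicate block and 1 in the neocortex with age as a factor. Without Hypothalamus Estrus 3 and Metestrus 3, the hypothalamus stage test called 1 and its pairwise contrasts 2. The interaction called 9 genes without the filter and 2 with DESeq2, against 0. The count of genes past a fold threshold depended on that threshold. At 0.5 in place of 1 it was 2 between hypothalamus and hippocampus, 4 between hypothalamus and neocortex, 12 between hypothalamus and cerebellum, 2 between hippocampus and neocortex, 7 between hippocampus and cerebellum and 11 between neocortex and cerebellum. With no threshold these became 23, 19, 23, 21, 25 and 24. Between hippocampus and cerebellum the count fell from 2 to 1 with RLE factors and with DESeq2, through Stard4, and it ran from 1 to 2 when single libraries were left out. Between hypothalamus and cerebellum it ran from 1 to 2 when single libraries were left out. The calls on Cyp46a1 and Hmgcs1 held in all alternatives run for them, with Cyp46a1 between 2.61 and 2.68 on the log2 scale for neocortex minus cerebellum when single libraries were left out.

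With stage and number as a replicate block, the count between hypothalamus and cerebellum was 2 (Cyp46a1 and Ebp) in place of 1, and no other call on the 29 genes changed. The numbers were not taken as pairing: same-numbered libraries of a region pair had correlations of deviations from the group means from -0.28 to 0.362, and in none of the 6 region pairs did all 11 or 12 same-numbered pairs exceed 0.1. Between neocortex and cerebellum all 11 were above 0 (0.0313 to 0.272), 7 exceeded 0.1, and the median was 0.104 against -0.0629 for different numbers. Deviations from a group mean cancel within the group, so values for same and different numbers are not independent. Asking every pair to exceed 0.1 cannot exclude shared animals. Libraries of the same stage and number also had the same age in every region. The stage share of variance was 1.08% with a prior count of 0.5 and 1.52% without the hippocampus. The median half-width of a stage interval on the log2 scale was 0.31 in the hypothalamus, the region with the lowest median depth, 0.30 in the hippocampus, the deepest, 0.21 in the neocortex and 0.26 in the cerebellum.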
